A study of Rattus norvegicus with 4 samples.

Results

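Capillary endothelial cells line the smallest vessels of skeletal muscle. In single-cell RNA sequencing of rat muscle they were taken as the barcodes that met a rule on measured counts, and 2886 of 14233 kept barcodes did so. A barcode was kept with at least 500 unique molecular identifiers (UMIs, each standing for 1 captured RNA molecule), at least 200 genes and at most 20% mitochondrial UMIs. It was then chosen by its own expression: 8 capillary genes (Fabp4, Aqp1, Timp4, Slc28a2, Tcf15, Meox2, Gpihbp1 and Rgcc) had to hold at least 1.5% of its UMIs. It could carry at most 1 UMI over the arterial genes Gja5, Gja4, Sox17 and Sema3g, at most 1 over the venous and activation genes Selp, Sele, Vcam1 and Plvap, and at most 2 over the interferon genes Rsad2, Mx1, Herc6, Usp18 and Isg15. Values of these 21 genes, and the contrast of the chosen cells with other cells, are therefore descriptions of the choice.

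Muscle capillaries form a continuous endothelium that exchanges oxygen, fatty acids and fluid with the fibres. Fatty acid handling by Fabp4 and Gpihbp1, water transport by Aqp1 and carbon dioxide hydration by membrane carbonic anhydrase are known features of these cells. Vascular endothelial growth factor (VEGF), read through the receptors Kdr and Flt1 and the co-receptor Nrp1, maintains the capillary bed and drives sprouting, while blood flow maintains the transcription factor Klf2.

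The 4 libraries came from rats aged 12 months, 1 from each combination of muscle and disease state: tibialis anterior (TA, a limb muscle) and extraocular muscles (EOM, which move the eye), each labelled wild-type (WT) or DMD. DMD commonly stands for Duchenne muscular dystrophy, the muscle disease of dystrophin loss, which is known to affect limb muscle severely and eye muscle little. The labels used here name no strain, no allele, no treatment and no number of animals, and all cells released by enzymatic digestion were loaded without a sort. Groups follow the disease state field of the labels. The title of every library states the opposite disease state, so the libraries are called WT-labelled and DMD-labelled throughout. If the titles were the correct ones, each difference between the labels given here would have the other sign.

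With 1 library in each group, no test was run, no p-value is given and no difference within a muscle has a replicate check. Intervals are 95% counting intervals: exact Poisson for levels, exact Clopper-Pearson for shares and exact conditional binomial for folds. They cover counting error only, and neither the spread between animals nor that between digestions. Levels are counts per 1000000 (CPM), the UMIs of a gene summed over the capillary cells of a library and divided by all UMIs of those cells. Dmd, the dystrophin gene, was read at 9.96 CPM in capillary cells of WT-labelled TA, 16.6 in DMD-labelled TA, 12.4 in WT-labelled EOM and 26.4 in DMD-labelled EOM. The labels do not say which stretch of the gene is altered, so these 3′ tags do not check the labels.

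WT-labelled TA held 719 capillary cells, DMD-labelled TA 1826, WT-labelled EOM 198 and DMD-labelled EOM 143. The sums rest on 1405080, 2168558, 403945 and 265249 UMIs in that order, so the EOM values are the less precise ones. A capillary cell held a median of 1753 UMIs in WT-labelled TA, 824 in DMD-labelled TA, 1968.5 in WT-labelled EOM and 1628 in DMD-labelled EOM. The median mitochondrial share lay between 6.58% and 8.53%. No capillary barcode was shared between libraries, and 22 barcodes were shared among all those deposited.

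DMD-labelled TA stood apart in a second way. Of its capillary cells, 46.9% carried 3 or more UMIs of markers of another cell type, against 11.5% in WT-labelled TA, 8.59% in WT-labelled EOM and 3.5% in DMD-labelled EOM. Fibroblast markers summed to 3316 CPM there, against 102 in WT-labelled TA, and the mural markers of pericytes and smooth muscle to 1592 CPM against 46.3. All 7 fibroblast markers in the table and all 10 mural ones had UMIs in DMD-labelled TA, while Pdgfra and Lum were at 0 in WT-labelled TA. Lists, counts and leading genes of that library are therefore also given without the cells that carried such markers, which leaves 969 of 1826 cells in DMD-labelled TA and 636, 181 and 138 in the others. These are called the marker-free cells. The part of other cells' RNA, or of cells captured together, in the results was not tested.

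Capillary cells made up 33.9% of kept barcodes in WT-labelled TA (interval 31.9 to 36), 21.4% in DMD-labelled TA (20.5 to 22.2), 15.7% in WT-labelled EOM (13.7 to 17.8) and 6.21% in DMD-labelled EOM (5.26 to 7.27). The intervals of the 4 libraries did not overlap, and the share was lower in the library labelled DMD in both muscles. The order of DMD-labelled TA and WT-labelled EOM depended on the cells included: without the cells that carried other markers the shares were 12.6% and 14.5%, and at a threshold of 3% they were 5.87% and 9.19%. The limits on arterial, venous and interferon UMIs act more often on deep barcodes: barcodes with 1.5% capillary UMIs that missed a limit had medians of 2583 to 2937 UMIs. After every barcode was thinned to 1000 UMIs, leaving out 284, 3657, 67 and 176 shallower ones in the order above, the shares were 53.1%, 26%, 26.1% and 13%. WT-labelled TA stayed highest and DMD-labelled EOM lowest, while DMD-labelled TA and WT-labelled EOM then had overlapping intervals. Without any of the limits the shares were 68.7%, 36.6%, 38.3% and 23%.

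**Figure D1:**
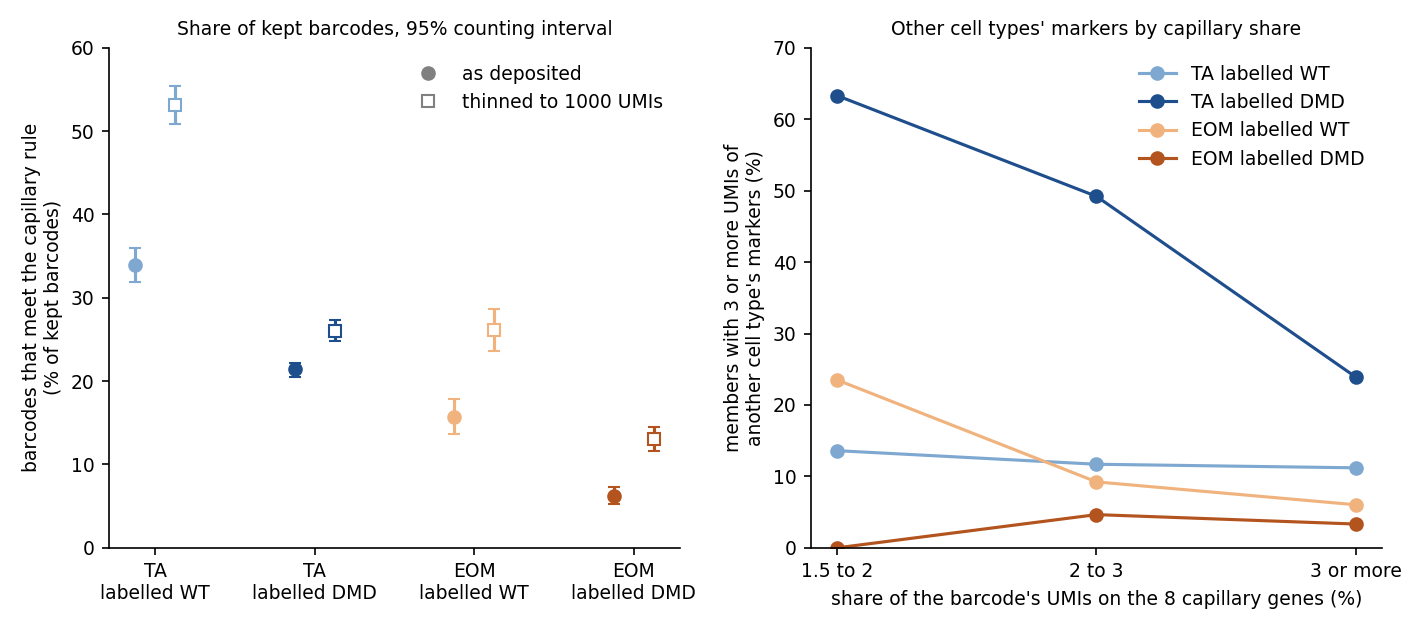
Left, share of kept barcodes that met the capillary rule in each library, in percent, as deposited (filled circles) and after thinning to 1000 UMIs (open squares), with 95% counting intervals. Right, percent of capillary cells with 3 or more UMIs of another cell type's markers, by the share of their UMIs on the 8 capillary genes; in DMD-labelled TA it was 63.3% in the lowest bin and 23.9% in the highest.

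The threshold of 1.5% cut through a continuum in DMD-labelled TA and through a sparse region elsewhere. In DMD-labelled TA, 605 capillary cells (33.1%) held 1.5 to 2% capillary UMIs, and 751 barcodes that met the other limits held 1 to 1.5%. In WT-labelled TA these numbers were 59 and 28, in WT-labelled EOM 17 and 12, and in DMD-labelled EOM 10 and 8. Pan-endothelial genes, a list of 19 measured genes such as Cdh5, Kdr, Tie1 and Tek that the rule did not use, summed to 7807 CPM just inside the threshold in DMD-labelled TA and to 5725 CPM just outside it. In the highest bin of that library they summed to 13615 CPM.

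Over all capillary cells the pan-endothelial sum was 15508 CPM in WT-labelled TA, 10694 in DMD-labelled TA, 15695 in WT-labelled EOM and 15548 in DMD-labelled EOM. Kept barcodes with under 0.5% capillary UMIs, called non-endothelial here, had sums between 590 and 1028 CPM. By these markers the cells were endothelial in all 4 libraries, with the lowest level in DMD-labelled TA, where the marker-free cells held 13446 CPM.

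Genes outside the rule described the cells in the same terms. They were ranked by the lowest of their ratios to non-endothelial barcodes over the libraries. Ca4, the membrane-bound carbonic anhydrase of capillaries, came first with 46.3 or more in every library. Rbp7, a retinol-binding protein, followed with 35.8 or more, and C1qtnf9, a secreted C1q-like protein, with 30.8 or more. Outside DMD-labelled TA the ratio of C1qtnf9 was above that of Ca4, for example 500 against 127 in DMD-labelled EOM. Next came Cmtm8, the apelin receptor Aplnr, Ptprr, Prom1, the VEGF receptor Flt1, Akr1c15 and Cyp4b1, with lowest ratios between 29.6 and 19.2. Of the rule genes, Rgcc stood at 3325, 1176, 3513 and 1783 CPM in WT-labelled TA, DMD-labelled TA, WT-labelled EOM and DMD-labelled EOM, and Gpihbp1, which anchors lipoprotein lipase on the capillary wall, at 1428, 1317, 626 and 2062 CPM.

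In the comparison of DMD-labelled TA with WT-labelled TA, capillary cells of the DMD library had less RNA of VEGF signalling genes, carbonic anhydrases and basement membrane. Pan-endothelial genes were lower there as well. Single genes such as Lgals3, Gadd45g, Myc and Fgl2 were higher. A gene was counted when its log2 ratio, after 10 CPM was added to both sides, reached 1 in either direction and it stood at 100 CPM or more in 1 of the 2 libraries. Of 1893 genes, 142 (7.5%) were counted as higher and 104 (5.49%) as lower. The median log2 ratio of genes with 100 CPM or more in both libraries was -0.11, and centring it on 0 gave 166 higher and 71 lower, so that 70% of the counted genes were higher in place of 57.7%. Among marker-free cells 69 were higher and 63 lower. The 10 highest and 10 lowest genes of the naming rule were all past 2-fold in marker-free cells too, with log2 ratios from 1.60 to 4.47 and from -3.51 to -1.61.

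The genes that the naming rule took as lower in DMD-labelled TA were led by Esm1, a proteoglycan of sprouting tip cells that VEGF induces. It stood at 548 CPM in WT-labelled TA, 30.4 in DMD-labelled TA, 245 in WT-labelled EOM and 147 in DMD-labelled EOM. The fold between the TA libraries was 18 (interval 14 to 23.5), and the marker-free cells gave 559 against 39.8 CPM. DMD-labelled TA alone had a level under 100 CPM.

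Of the VEGF receptors, Kdr, the main signalling receptor, was at 1543 CPM in WT-labelled TA, 464 in DMD-labelled TA, 1141 in WT-labelled EOM and 1003 in DMD-labelled EOM, 3.32-fold lower between the TA libraries (3.08 to 3.58). Nrp1, its co-receptor, was at 2036, 587, 2446 and 1274 CPM in the same order, 3.47-fold lower in TA (3.24 to 3.71) and 1.92-fold lower in EOM (1.69 to 2.18). Flt1, the receptor that binds VEGF with high affinity and acts largely as a trap, was at 2107, 1128, 2008 and 2910 CPM. It was 1.87-fold lower in TA (1.77 to 1.97) and 1.45-fold higher in EOM (1.31 to 1.6), both within 2-fold. In marker-free TA cells Kdr was at 1534 and 590 CPM, Nrp1 at 2021 and 747 CPM and Flt1 at 2153 and 1528 CPM, with differences of the same direction.

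Of the 15 VEGF signalling and sprouting genes with 20 CPM or more, none was past 2-fold higher in DMD-labelled TA and 6 were past 2-fold lower: Esm1, Apln, Nrp1, Plxnd1, Pdgfb and Lamb1. Apln is the ligand of Aplnr and Pdgfb is the endothelial factor that recruits pericytes; the latter stood at 330 CPM in WT-labelled TA and 116 in DMD-labelled TA. The median log2 ratio of the list was -0.77, and -0.60 in marker-free cells, where Plxnd1 (-0.97) was within 2-fold and 5 genes were past it. Over all 6438 genes with 20 CPM or more the median was -0.14, with 5.78% past 2-fold higher and 3.08% past 2-fold lower. In EOM the list's median was -0.45, against -0.09 over all genes, and none of its 15 genes was past 2-fold. The pan-endothelial genes were also lower in DMD-labelled TA, with a median of -0.67 over 18 genes and -0.37 in marker-free cells. Kdr, Egfl7, Emcn and Eng were past 2-fold lower and none higher, and in marker-free cells 1 was lower and 1 higher. In EOM their median was -0.25. Whether the VEGF genes differed from endothelial genes in general was not tested.

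**Figure D2:**
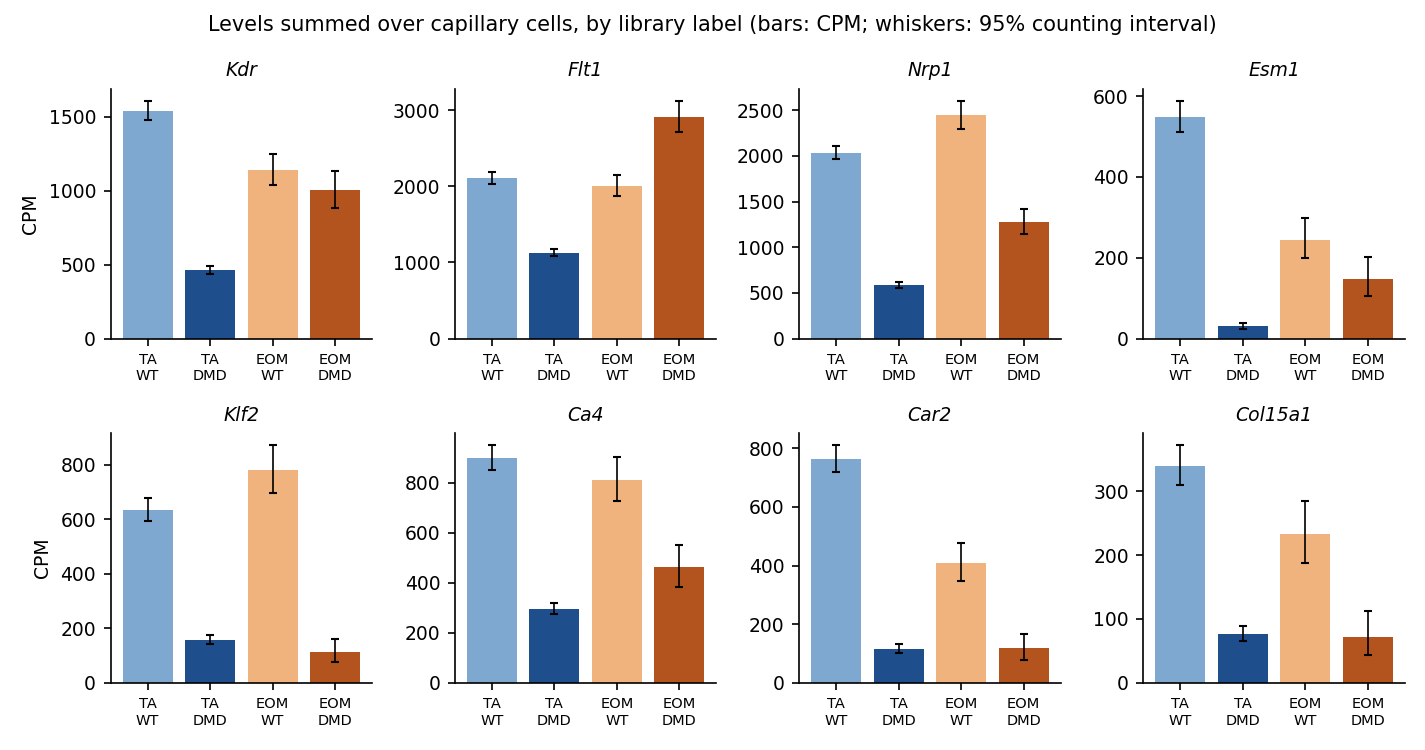
CPM of 8 genes summed over capillary cells of each library (bars start at 0; whiskers, 95% counting intervals; WT and DMD as in the disease state field). All but Flt1 were lower in both libraries labelled DMD than in both labelled WT, and Flt1 was lowest in DMD-labelled TA and highest in DMD-labelled EOM.

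Carbonic anhydrases were low in the same library. Ca4 was at 900 CPM in WT-labelled TA, 297 in DMD-labelled TA, 812 in WT-labelled EOM and 464 in DMD-labelled EOM. Car2, the cytosolic enzyme, was at 764, 116, 408 and 117 CPM, 6.6-fold lower in TA (5.75 to 7.61) and 3.5-fold lower in EOM (2.37 to 5.31). Both libraries labelled DMD lay below both labelled WT for each enzyme. In marker-free TA cells Ca4 stood at 898 and 376 CPM. Car2 is also abundant in red blood cells, whose 4 measured markers summed to 1420, 2690, 426 and 86.7 CPM in capillary cells and to 187336, 5850, 141163 and 7107 CPM in non-endothelial barcodes. Their part in the Car2 values was not tested. In marker-free cells, where the red blood cell markers summed to 335, 75.4, 359 and 86.1 CPM, Car2 stood at 740, 136, 395 and 121 CPM.

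Matrix genes followed. Col15a1, a collagen of the basement membrane zone, stood at 340 CPM in WT-labelled TA and 76.1 in DMD-labelled TA, and at 233 and 71.6 CPM in the EOM libraries. Sparc, a collagen-binding matricellular protein, was at 5269, 2127, 3966 and 2209 CPM, 2.48-fold lower in TA (2.39 to 2.57) and 1.8-fold lower in EOM (1.63 to 1.98). In marker-free TA cells Col15a1 was at 355 and 89.5 CPM and Sparc at 5317 and 2176 CPM. The 12 basement membrane genes with 20 CPM or more in TA had a median log2 ratio of -0.60, with Lama4, Sparc and Col15a1 past 2-fold lower and Col18a1 past 2-fold higher. The same 4 genes were past 2-fold in marker-free cells, where the median was -0.47. In EOM the median over 11 genes was -0.54, with Nid1 and Col15a1 past 2-fold lower and none higher, against 5.35% of all 6338 genes lower and 3.14% higher. Without marker-carrying cells Nid1 had -0.94, within 2-fold. Col4a1, the major chain of the capillary basement membrane, was at 1460, 929, 1084 and 743 CPM and within 2-fold in both muscles.

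The other genes of the lower group in TA by the naming rule were Hmcn1, Calhm5, Mmp15, Pkdcc, Klf2, Fam111a and S100a3, with log2 ratios from -1.78 to -2.24. Pkdcc, a secreted protein kinase, was at 318 and 71.9 CPM in TA and at 161 and 158 CPM in EOM, where the interval of the fold (0.679 to 1.54) held 1. Hmcn1, which encodes the extracellular matrix protein hemicentin, was at 116 and 16.6 CPM in TA and 171 and 82.9 CPM in EOM.

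The genes higher in DMD-labelled TA that the naming rule took, which had to reach the non-endothelial level, were led by Lgals3, the lectin galectin-3. Genes below that level, such as Fgl2 and Ccl2, had higher ratios (5.39 and 5.04 on the log2 scale, against 4.51). It stood at 9.96 CPM in WT-labelled TA, 445 in DMD-labelled TA, 22.3 in WT-labelled EOM and 113 in DMD-labelled EOM. The TA fold was 44.7 (26.5 to 82), and in marker-free cells the levels were 8.23 and 393 CPM. Non-endothelial barcodes of DMD-labelled TA held 415 CPM, close to the capillary level, whereas those of WT-labelled TA held 31.8 CPM.

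Capg, an actin-capping protein, was at 17.8 CPM in WT-labelled TA and 254 in DMD-labelled TA, and at 74.3 and 82.9 CPM in the EOM libraries. Adamts4, a matrix protease, was at 2.14 and 147 CPM in TA, and at 47.3 CPM in marker-free cells of DMD-labelled TA. Il33, an alarmin stored in the nucleus, was at 34.9 and 171 CPM, and Bnip3, a mitophagy receptor that hypoxia induces, at 103 and 334 CPM. In marker-free TA cells Capg was at 16.5 and 268 CPM and Il33 at 30.4 and 121 CPM. Myc, Gadd45g, Mid1ip1, Tm4sf1 and Fxyd5 completed the 10 genes, with TA log2 ratios from 1.68 to 3.45. Bnip3 and Fxyd5 kept nearly the same log2 ratio in marker-free cells, 1.60 and 1.76.

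In EOM, fewer genes differed between the labels at the main settings, but the order depended on the setting. With capillary genes at 3% or more of UMIs, EOM had 86 higher and 89 lower, against 78 and 61 in TA. With no filter on level EOM also had more in total, 307 higher and 465 lower against 509 and 209. Of 1912 genes, 53 (2.77%) were past 2-fold higher and 58 (3.03%) past 2-fold lower in DMD-labelled EOM. Ubd, a ubiquitin-like modifier that inflammatory cytokines induce, led the genes with a symbol that the naming rule took as higher, at 4.95 CPM in WT-labelled EOM and 147 in DMD-labelled EOM, with 4.98 and 35.5 CPM in TA. The EOM fold of 29.7 has an interval of 7.69 to 254, since the WT level rests on few UMIs.

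Cldn5, the claudin that seals endothelial tight junctions, was at 371 CPM in WT-labelled EOM and 1497 in DMD-labelled EOM, 4.03-fold higher (3.33 to 4.9), and at 991 and 1789 CPM in TA. WT-labelled EOM was the low library. Irf1, an interferon-regulated transcription factor, was at 272 and 909 CPM in EOM and 242 and 463 CPM in TA. Tfpi2, a protease inhibitor of the clotting system, was at 14.9 and 113 CPM in EOM and 15.7 and 99.1 CPM in TA, but at 48.1 CPM in marker-free cells of DMD-labelled TA. Gadd45b, Ggta1, Bcr, Mbd2, Hbegf and Ncoa7 were the others of the higher 10, with EOM log2 ratios from 1.68 to 2.01.

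The lower group in EOM by the naming rule was led by Hrct1 at 406 CPM in WT-labelled EOM and 45.2 in DMD-labelled EOM, 8.97-fold (5 to 17.7), and by Rnasek, a subunit associated with the proton pump of acidic vesicles, at 156 and 15.1 CPM. In TA the same genes differed less, at 236 and 119 CPM for Hrct1 and 139 and 82.5 CPM for Rnasek. Rnf215, Rnf14, Hspa1b, Car2, Fam111a and the mitochondrial genes Idh2 and Cox6b1 followed, with log2 ratios from -1.38 to -2.45. Of Cox6b1 the files hold a pair of gene entries under the same symbol, between which reads could be split, so its value is uncertain. The entry named by the rule was at 114 CPM in WT-labelled EOM and 37.7 in DMD-labelled EOM, and the more abundant one at 359 and 437. The 18 entries of nuclear-encoded respiratory chain genes had a median of -0.10 in EOM, with Uqcrb alone past 2-fold. That symbol also has a pair of entries, at 47 and 7.54 CPM and at 183 and 271 CPM in WT-labelled and DMD-labelled EOM, so its value is uncertain too.

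The disease comparisons of TA and EOM share no library. Among the genes past 2-fold, 17 were higher in both muscles, which is 12% of the 142 in TA and 32.1% of the 53 in EOM. A further 12 were lower in both, 11.5% of the 104 in TA and 20.7% of the 58 in EOM. A gene could be shared only if it passed the 100 CPM filter in both comparisons. Of the higher genes, 61 of the 142 and 33 of the 53 did so, and of the lower ones 92 of the 104 and 37 of the 58. Of these 29 genes, all but Cebpd and Depp1 were also past 2-fold in marker-free TA cells, where those genes had log2 ratios of 0.93 and -0.89.

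**Figure D3:**
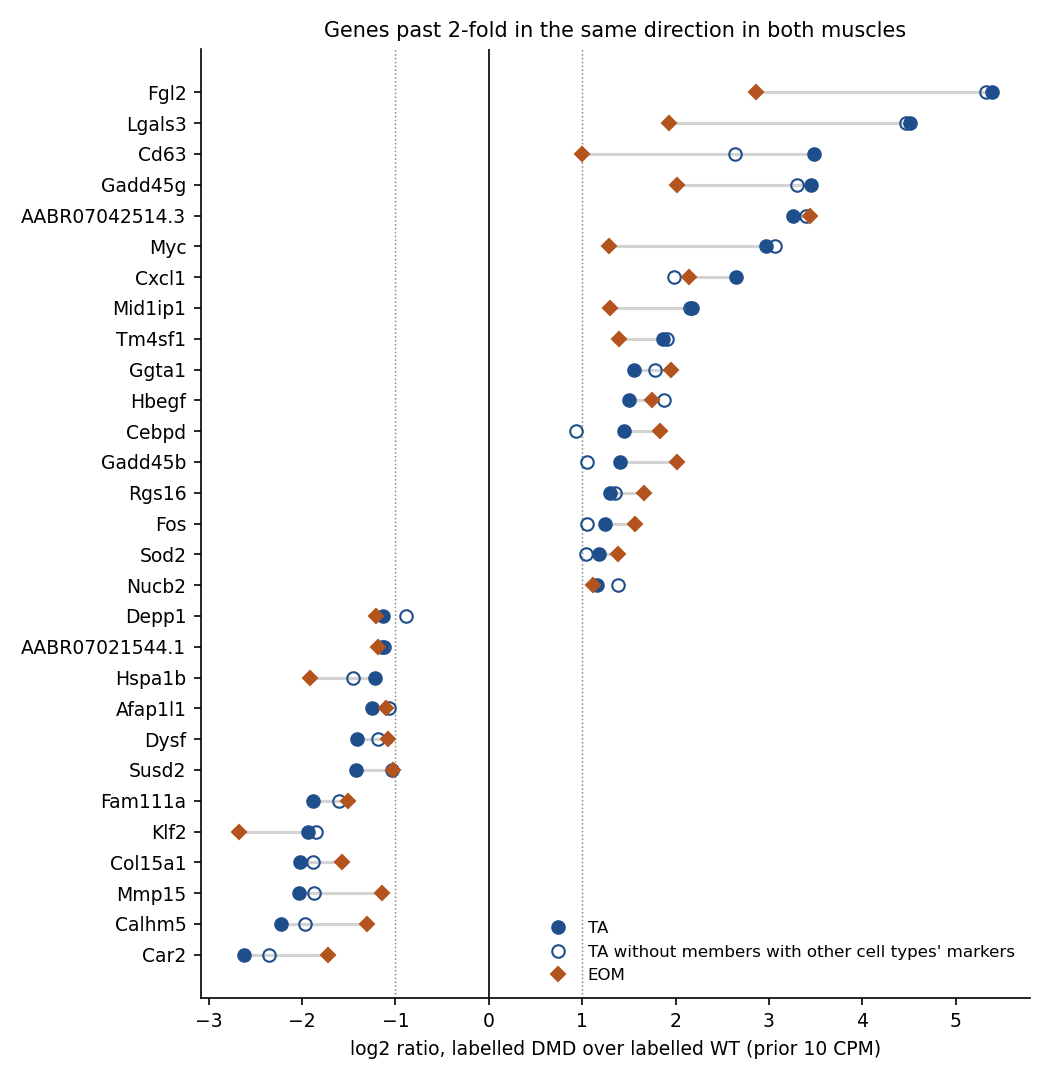
Log2 ratio of the library labelled DMD over that labelled WT (prior 10 CPM) for the 29 genes past 2-fold in the same direction in both muscles: TA (filled circles), TA without cells that carried other cell types' markers (open circles) and EOM (diamonds). Dotted lines mark 2-fold; Fgl2 and Lgals3 reached the highest TA values and Klf2 the lowest EOM value.

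Klf2, the flow-dependent transcription factor that keeps endothelium quiescent, was at 635 CPM in WT-labelled TA, 158 in DMD-labelled TA, 780 in WT-labelled EOM and 113 in DMD-labelled EOM. It was 4.01-fold lower in TA (3.54 to 4.56) and 6.89-fold lower in EOM (4.73 to 10.4), and both libraries labelled DMD lay below both labelled WT. In marker-free cells it was at 633 and 168 CPM in TA. Its relative Klf4 was at 1485, 983, 2146 and 1474 CPM, within 2-fold in each muscle. Nos3, the endothelial nitric oxide synthase, was at 416, 232, 399 and 324 CPM and also within 2-fold. Of the 9 flow and vascular tone genes, Klf2 alone was past 2-fold lower, in both muscles. The endothelin receptor Ednrb was past 2-fold higher in both, at 15.7 and 63.6 CPM in TA and 7.43 and 45.2 CPM in EOM.

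The other genes lower in both muscles were Calhm5, Mmp15, Col15a1, Fam111a, Susd2, Dysf, Afap1l1, Hspa1b, Depp1, Car2 and the unnamed transcript AABR07021544.1. Dysf, which encodes the membrane repair protein dysferlin, was at 123 CPM in WT-labelled TA, 40.1 in DMD-labelled TA, 171 in WT-labelled EOM and 75.4 in DMD-labelled EOM. Calhm5, a member of the calcium homeostasis modulator family, was at 561, 112, 376 and 147 CPM and at most 12.9 CPM in non-endothelial barcodes. Hspa1b, an inducible heat shock protein, was at 1049, 445, 1713 and 445 CPM.

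Fgl2, a membrane and secreted protein of coagulation and immune regulation, had the highest TA ratio of the genes higher in both muscles. It was at 5.69 CPM in WT-labelled TA, 646 in DMD-labelled TA, 7.43 in WT-labelled EOM and 117 in DMD-labelled EOM, a TA fold of 113 (57.4 to 263) and an EOM fold of 15.7 (4.91 to 80.4). The marker-free cells of DMD-labelled TA held 655 CPM. Non-endothelial barcodes held 178, 766, 191 and 392 CPM, above the capillary cells of the same library in each case.

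The growth arrest and DNA damage genes Gadd45b and Gadd45g were high in both libraries labelled DMD. Gadd45g was at 56.2 CPM in WT-labelled TA, 712 in DMD-labelled TA, 136 in WT-labelled EOM and 577 in DMD-labelled EOM. Gadd45b was at 152, 421, 149 and 630 CPM. Of the 8 genes of the cell cycle arrest list, Gadd45b, Gadd45g and Ccng1 were past 2-fold higher in both muscles, and none was lower. Ccng1 rests on few UMIs in EOM, where it was read in 3 capillary cells labelled WT and 7 labelled DMD. After thinning, its share was below that of non-endothelial barcodes in every library, for example 3.92% against 11% in DMD-labelled EOM. Over all genes 5.78% were past 2-fold higher in TA and 3.14% in EOM. The medians of the list were 0.54 in TA, 0.63 in its marker-free cells, where the same 3 genes were past 2-fold, and 0.59 in EOM. Cdkn1a, the inhibitor p21 of the same list, was at 203, 216, 238 and 403 CPM.

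Secreted and signalling genes were among the 17 as well. Cxcl1, a chemokine that attracts neutrophils, was at 18.5 CPM in WT-labelled TA, 168 in DMD-labelled TA, 24.8 in WT-labelled EOM and 143 in DMD-labelled EOM, but it was higher in non-endothelial barcodes (192, 308, 534 and 860 CPM). Hbegf, a growth factor of the EGF family, was at 59.1, 185, 79.2 and 290 CPM, above the non-endothelial level in each library. Rgs16, a brake on G protein signalling, was at 413, 1030, 493 and 1576 CPM. Cd63, a tetraspanin of late endosomes and of the storage granules of endothelium, was at 37, 513, 49.5 and 109 CPM, and at 268 CPM in marker-free cells of DMD-labelled TA. After thinning it had a UMI in 3.19%, 27.5%, 2.87% and 10.8% of capillary cells. In non-endothelial barcodes the shares were higher, at 51.6%, 68.6%, 61.7% and 63.1%. Fos, Myc and Cebpd (transcription factors), Sod2 (mitochondrial superoxide dismutase), Nucb2, Tm4sf1, Ggta1 and Mid1ip1 made up the rest with a symbol.

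The unnamed transcript AABR07042514.3 was singled out after its values were seen. It stood at 30.6 CPM in WT-labelled TA, 378 in DMD-labelled TA, 22.3 in WT-labelled EOM and 339 in DMD-labelled EOM, a fold of 12.3 in TA (9.08 to 17.2) and 15.2 in EOM (7.68 to 34.4). After thinning to 1000 UMIs it had a UMI in 3.37%, 25.4%, 3.45% and 20.6% of capillary cells, and in 1.72%, 6.71%, 0.58% and 3.94% of non-endothelial barcodes. Unthinned, the shares of capillary cells were 4.73%, 25.5%, 4.55% and 28.7%. Between the muscles its fold was 1.37 within WT (0.66 to 3.2) and 1.11 within DMD (0.894 to 1.4), and both intervals held 1.

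Promoters of the genes that differed the same way in both muscles were read from RefSeq (build GRCr8), 250 bases before the annotated start, and searched on both strands for motifs chosen after the genes were known. The table held a promoter for 10 of the 17 genes higher in both muscles and for 7 of the 12 lower in both. The E-box CACGTG, the sequence bound by Myc and by clock factors, was in 3 of the 10 and in none of the 7, against 5.59% of 33469 promoters. The NF-kB motif was in 1 of the 10 (6.33% of all promoters), the AP-1 motif TGANTCA in 1 (6.34%), and the cyclic AMP response element TGACGTCA in none (1.59%). CCACCC, which Klf factors bind, was in 5 of the 10 and 1 of the 7 (26.1%), and the ETS motif CCGGAA in 2 and 1 (12.6%). The promoters below show the Gadd45b, Gadd45g and Cd63 E-boxes and the Cxcl1 NF-kB match, a pair of overlapping matches, in capitals. A match is a description of the letters and not a bound site.
Gadd45b, chr7:9430719-9430968, minus strand, E-box 173 bases before the start: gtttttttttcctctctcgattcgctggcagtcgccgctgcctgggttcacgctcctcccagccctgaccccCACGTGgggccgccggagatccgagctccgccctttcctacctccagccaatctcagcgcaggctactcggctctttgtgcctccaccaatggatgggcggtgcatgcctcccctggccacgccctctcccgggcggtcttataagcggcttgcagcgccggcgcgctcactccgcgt
Gadd45g, chr17:13530352-13530601, minus strand, E-box 158 bases before the start: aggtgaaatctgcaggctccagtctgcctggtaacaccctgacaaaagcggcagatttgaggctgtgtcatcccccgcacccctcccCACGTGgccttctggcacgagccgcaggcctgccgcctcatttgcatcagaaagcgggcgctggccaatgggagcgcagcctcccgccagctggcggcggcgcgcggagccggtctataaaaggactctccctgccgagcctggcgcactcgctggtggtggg
Cd63, chr7:1921894-1922143, plus strand, E-box 185 bases before the start: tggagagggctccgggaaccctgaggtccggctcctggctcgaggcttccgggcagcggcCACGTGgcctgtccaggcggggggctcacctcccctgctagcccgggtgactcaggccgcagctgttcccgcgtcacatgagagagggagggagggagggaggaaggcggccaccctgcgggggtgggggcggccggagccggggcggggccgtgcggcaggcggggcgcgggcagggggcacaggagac
Cxcl1, chr14:17479322-17479571, minus strand, NF-kB matches 75 and 74 bases before the start: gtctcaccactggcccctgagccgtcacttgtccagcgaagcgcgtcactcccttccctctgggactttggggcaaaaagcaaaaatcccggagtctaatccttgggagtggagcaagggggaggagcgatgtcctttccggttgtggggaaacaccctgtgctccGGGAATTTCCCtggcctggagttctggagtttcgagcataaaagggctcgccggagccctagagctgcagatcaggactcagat

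Immediate early genes, which cells switch on within minutes of a stimulus and also during tissue digestion, had medians above 0 in both muscles. Of 19 genes in TA, 7 were past 2-fold higher (Fos, Egr2, Atf3, Nr4a2, Nr4a3, Socs3 and Myc) and Dusp1 was past 2-fold lower, against 5.78% and 3.08% of all genes. In marker-free cells 5 were higher, since Egr2 and Nr4a3 had 0.84 and 0.83. Of 18 in EOM, 6 were past 2-fold higher (Fos, Egr1, Ier3, Socs3, Myc and Csrnp1) and none lower, against 3.14% and 5.35% of all genes. The medians were 0.77 in TA, 0.55 in its marker-free cells and 0.68 in EOM. Fos was at 1776, 4195, 1322 and 3932 CPM in capillary cells of WT-labelled TA, DMD-labelled TA, WT-labelled EOM and DMD-labelled EOM. It was at 4111, 6325, 4305 and 6319 CPM in non-endothelial barcodes, also higher in both libraries labelled DMD. The time between dissection and lysis is not given in the labels used here, and its part was not tested.

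Inducible heat shock genes had medians of 0.03 over 12 genes in TA, -0.03 in its marker-free cells and 0.01 over 11 genes in EOM. The medians over all genes were -0.14 in TA and -0.09 in EOM. In both muscles Hspa1b and Hsph1 were past 2-fold lower and the co-chaperone Bag3 past 2-fold higher, but Hsph1 had -0.73 in marker-free TA cells. Over all genes 3.08% were past 2-fold lower and 5.78% higher in TA, and 5.35% and 3.14% in EOM. Bag3 was at 29.9 and 73.3 CPM in TA and 37.1 and 102 CPM in EOM.

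Glycolysis and hypoxia genes had medians of 0.86 over 10 genes in TA, 0.95 in marker-free cells and 0.58 over 9 genes in EOM. Ldha, the lactate dehydrogenase subunit of glycolytic cells, was at 181 CPM in WT-labelled TA, 404 in DMD-labelled TA, 349 in WT-labelled EOM and 464 in DMD-labelled EOM. Pgk1, Bnip3 and Ndrg1 were also past 2-fold higher in TA, Pfkfb3 alone in EOM, and none was past 2-fold lower in either. Over all genes 5.78% were past 2-fold higher in TA and 3.14% in EOM, with medians of -0.14 and -0.09. In marker-free cells 3 genes of the list were past 2-fold higher in TA and none in EOM. Fatty acid handling genes had medians of 0.08 in TA, 0.00 in its marker-free cells and 0.06 in EOM. In TA 3 of the 9 were past 2-fold higher, against 5.78% of all genes, also in marker-free cells. None was past 2-fold lower, but 4 were lower within 2-fold. The 3 higher ones were Angptl4, an inhibitor of lipoprotein lipase (3.56 and 144 CPM), the lipoprotein receptor Scarb1 (112 and 276 CPM) and the cholesterol exporter Abca1 (0 and 49.8 CPM). After thinning, Angptl4 had a UMI in 9.8% of capillary cells and 11.4% of non-endothelial barcodes of DMD-labelled TA. For Abca1 these shares were 3.17% and 7.29%. Lpl, lipoprotein lipase, was at 1021, 718, 973 and 1056 CPM.

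**Figure D4:**
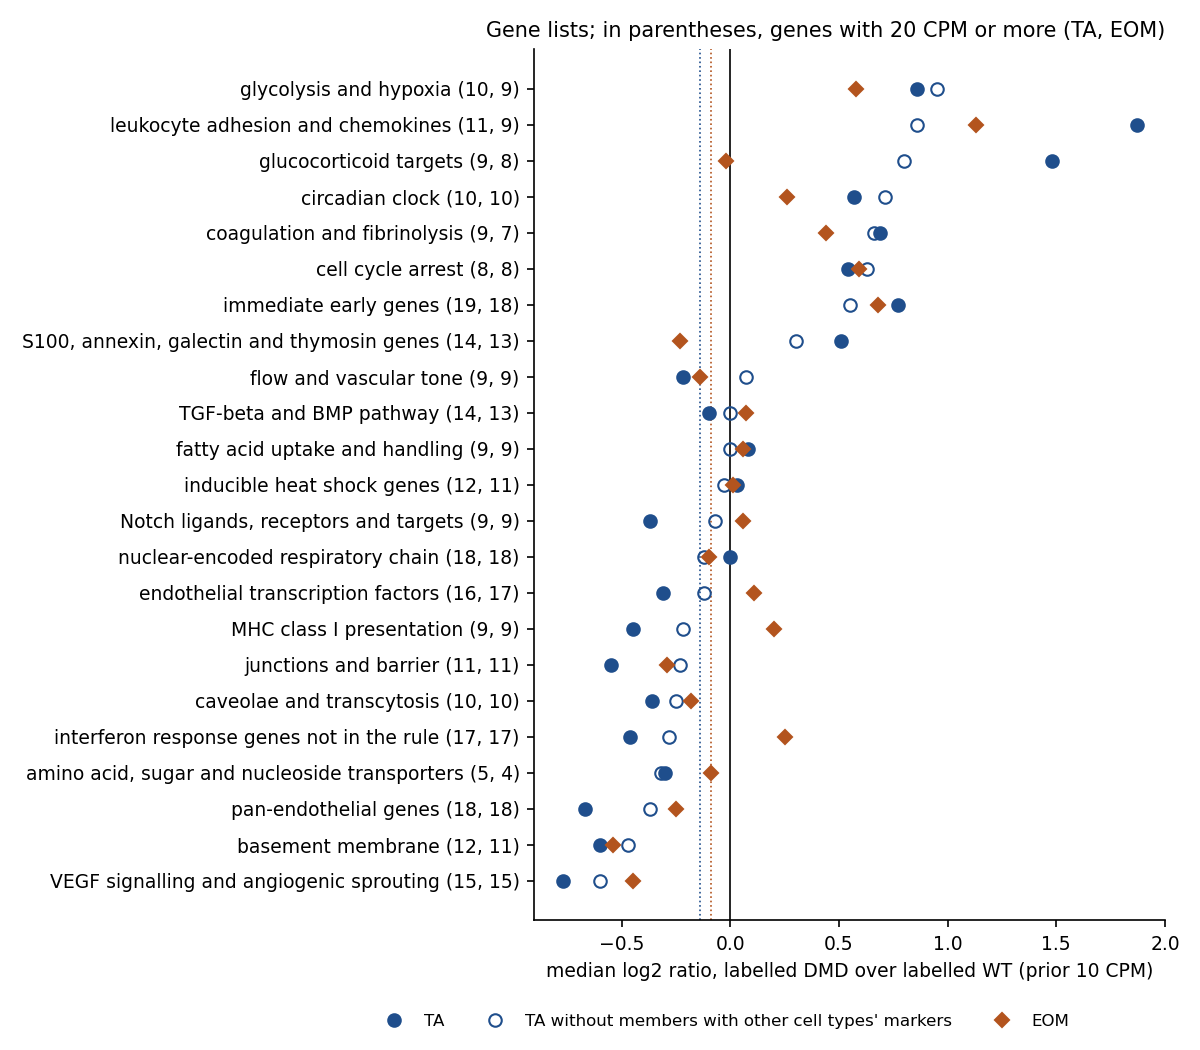
Median log2 ratio of the library labelled DMD over that labelled WT for gene lists, over members with 20 CPM or more in 1 of the 2 libraries (numbers of genes for TA and EOM in parentheses): TA (filled circles), TA without cells that carried other cell types' markers (open circles), EOM (diamonds). Dotted lines mark the medians over all genes, -0.14 in TA and -0.09 in EOM; lists with under 5 such genes in TA or under 4 in EOM, among them carbonic anhydrases and class II presentation, are not drawn. Of the lists drawn, VEGF signalling was lowest and the chemokine list highest in TA.

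Leukocyte adhesion and chemokine genes had medians of 1.87 over 11 genes in TA and 1.13 over 9 in EOM, but 0.86 in marker-free TA cells. Icam1, the adhesion receptor for leukocytes, was at 2.85, 36.9, 9.9 and 56.6 CPM, and in marker-free cells at 3.29, 14.1, 5.52 and 58.7 CPM. Ccl2, a monocyte chemokine, was at 2.85 CPM in WT-labelled TA and 414 in DMD-labelled TA, and at 68.8 CPM in the marker-free cells of the latter. Cx3cl1, a membrane-bound chemokine, was lower in the DMD library in TA (32.7 and 16.1 CPM) and higher in EOM (32.2 and 98 CPM). Of the 11 genes in TA, 6 were past 2-fold higher and none lower, against 5.78% and 3.08% of all genes. In marker-free cells 5 were past 2-fold higher and 1 lower. By direction alone, 7 of the 11 were higher and 4 lower. Cxcl12, of the same list, stood at 2932 and 2155 CPM in TA, and the whole list summed to 3428 and 3435 CPM. In TA, 3 of the 11 genes were at or above the non-endothelial level of the library where they were higher, and the median of those 3 was -0.54. Fibroblast, mural and macrophage markers were highest in DMD-labelled TA, and their part was not tested.

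Class II antigen presentation genes are those of professional immune cells. Their median in TA was 3.35 over 5 genes, all past 2-fold higher, against 5.78% of all genes. In marker-free cells the median was 1.15 and 3 of the 5 were past 2-fold higher. Cd74, the invariant chain, was at 162 CPM over all capillary cells of DMD-labelled TA and at 14.1 CPM in its marker-free cells. Macrophage and monocyte markers summed to 247 CPM in all cells and 46.4 CPM in marker-free cells of that library, and to 12.1, 17.3 and 33.9 CPM over all cells of WT-labelled TA, WT-labelled EOM and DMD-labelled EOM.

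Class I presentation and interferon response genes outside the rule had medians of opposite sign in TA and EOM, a difference that was not tested. The class I median over 9 genes was -0.45 in TA and 0.20 in EOM, and the interferon median over 17 genes was -0.46 and 0.25. In marker-free cells the TA medians were -0.22 and -0.28. B2m, the class I light chain, was at 10169, 8538, 10816 and 12698 CPM. The rule itself removed cells with over 2 interferon UMIs, 17.2%, 7.66%, 18.8% and 25.5% of barcodes with enough capillary UMIs, so these medians describe what remained.

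The next comparison set EOM beside TA within a label. In the libraries labelled WT, 18 of 1886 genes (0.954%) were past 2-fold higher in EOM and 20 (1.06%) past 2-fold lower, fewer than in any other comparison here. In the libraries labelled DMD, 67 of 1858 (3.61%) were higher and 114 (6.14%) lower, and 49 and 49 in marker-free cells. The comparisons share libraries with those between labels.

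EOM capillary cells had more Cxcl12, the chemokine that retains progenitors and immune cells at vessels, in both labels. It was at 2932 CPM in WT-labelled TA, 2155 in DMD-labelled TA, 6741 in WT-labelled EOM and 6647 in DMD-labelled EOM. The fold was 2.3 within WT (2.19 to 2.41) and 3.08 within DMD (2.92 to 3.26). Non-endothelial barcodes held 74 to 168 CPM. Its receptor Cxcr4 was lower in EOM, at 374 and 254 CPM in TA and 141 and 166 CPM in EOM.

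**Figure D5:**
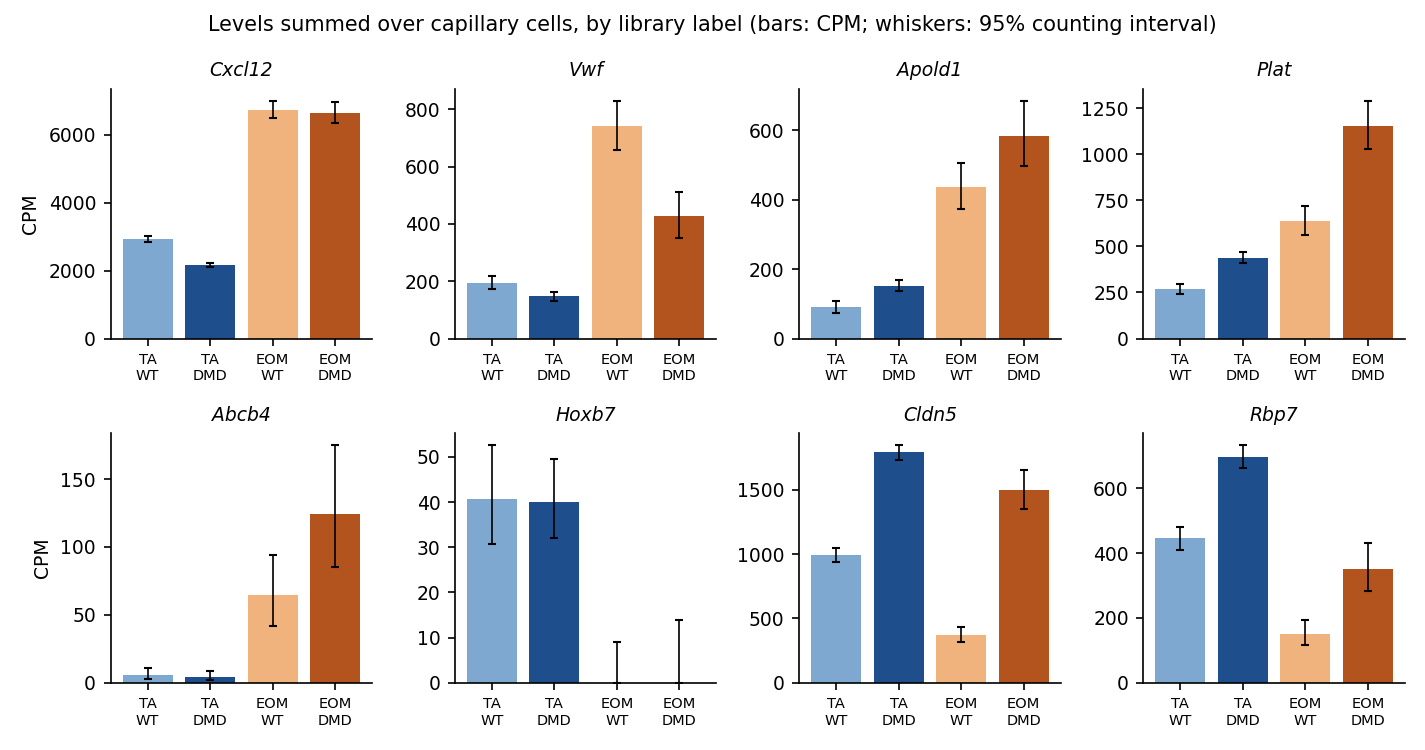
CPM of 8 genes summed over capillary cells of each library (bars start at 0; whiskers, 95% counting intervals; WT and DMD as in the disease state field). Cxcl12, Vwf, Apold1, Plat and Abcb4 were higher in both EOM libraries than in both TA libraries, and Hoxb7 was at 0 in both EOM libraries.

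Of the haemostasis genes, Vwf and Plat were higher in EOM in both labels. Vwf, the platelet-binding multimer, was at 194 CPM in WT-labelled TA, 147 in DMD-labelled TA, 740 in WT-labelled EOM and 426 in DMD-labelled EOM. Plat, tissue plasminogen activator, was at 268, 439, 636 and 1154 CPM. Of 7 coagulation and fibrinolysis genes, Vwf, Plat and Entpd1 were past 2-fold higher in WT-labelled EOM over WT-labelled TA and none lower. The median was 0.92 against 0.00 over all 6345 genes, of which 1.39% were past 2-fold higher and 1.64% lower. Within DMD, of 9 such genes Vwf and Plat were past 2-fold higher and F3 and Serpine2 past 2-fold lower. The median was 0.33 against 0.06 over all 6351 genes, of which 2.88% were past 2-fold higher and 6.52% lower. In marker-free cells the median was 0.10, with 2 genes past 2-fold higher and none lower.

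Apold1, an endothelial early response gene, was at 89.7 CPM in WT-labelled TA, 152 in DMD-labelled TA, 436 in WT-labelled EOM and 584 in DMD-labelled EOM. Abcb4, a phospholipid transporter, was at 5.69, 4.61, 64.4 and 124 CPM, so that TA held few UMIs of it. Pltp, the phospholipid transfer protein of plasma, was at 211, 127, 582 and 452 CPM. Lrat, which esterifies retinol, was at 42, 27.2, 134 and 94.3 CPM, and Rbp7 was at 445, 697, 151 and 351 CPM, so that these retinoid genes differed between the muscles in opposite directions.

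Hox genes give cells of trunk and limb their position and are known to be silent in the front of the head. Hoxb7 was at 40.6 CPM in WT-labelled TA and 40.1 in DMD-labelled TA and had no UMI in either EOM library, at least 5.46-fold lower within WT and at least 3.55-fold lower within DMD when 3 counts per library are set for 0. Hoxb4 was at 64.1 and 36.4 CPM in TA, 2.48 in WT-labelled EOM and 0 in DMD-labelled EOM.

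Genes lower in WT-labelled EOM included Gmfg, Adora2a (the adenosine receptor of vasodilation), Mroh7, Polr2a, Ets2 and Purb beside Rbp7, Cldn5, Cxcr4 and Esm1, with log2 ratios from -1.12 to -1.65. Higher ones beside those described were Slc6a6 (the taurine transporter), Slc26a10 and Tm4sf1. Several did not hold in the other label: Cldn5 was 2.67-fold lower in EOM within WT (2.25 to 3.18) and 1.2-fold lower within DMD (1.08 to 1.33), and Esm1 was 2.24-fold lower within WT (1.81 to 2.79) and 4.83-fold higher within DMD (3.17 to 7.28). These differences were not tested.

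Within DMD, the higher genes in EOM also included Rnd1, Ubd, Igfbp3 and Sap30l, and the lower ones Adamts4, Lgals3, Clic2, Capg, Ifi27l2b, Ldb2, Hrct1, Ddit4, Plp2 and Mylip. Rnd1, a small GTPase that loosens actin stress fibres, was at 57.6 and 59.5 CPM in TA and 124 and 373 CPM in EOM. Igfbp3, a carrier of insulin-like growth factors, was at 481, 222, 597 and 754 CPM in WT-labelled TA, DMD-labelled TA, WT-labelled EOM and DMD-labelled EOM. Lgals3 and Capg were again highest in DMD-labelled TA.

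Barcodes that missed the rule by 1 limit were the nearest neighbours. Those over the arterial limit alone numbered 475, 658, 188 and 238, with medians of 2407 to 2920.5 UMIs. Klf2 was higher in them than in capillary cells by 0.43 to 0.56 on the log2 scale in the 4 libraries, Rgs16 by 0.42 to 0.94 and the gap junction gene Gja1 by 0.40 to 0.54. Klf2 was low in both libraries labelled DMD in these cells too, at 944, 231, 1058 and 163 CPM.

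Barcodes over the venous limit alone numbered 7, 258, 2 and 5 and were described in DMD-labelled TA. They held more Cytl1 (798 against 67.8 CPM), Rasa4, Icam1 (251 against 36.9 CPM) and Ccl7, and less Inka2, Prom1, Cldn5 (410 against 1789 CPM), Cxcr4 and Ca4 (70.6 against 297 CPM). This contrast is the rule's own and is given as a description.

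Immediate early genes were among those that varied most over the capillary cells of a library. After thinning to 1000 UMIs, 564, 694, 174 and 102 cells remained, and 155, 1132, 24 and 41 were too shallow. The Fano factor, the variance over cells divided by the mean, was 3.22 or more for Fos in every library, 2.93 or more for Fosb, 2.73 or more for Btg2 and 2.5 or more for Jun. The cytoskeletal peptide Tmsb4x (4.93 or more) and the protease inhibitor Cst3 (3.41 or more) came before them. Over 1039 genes with a mean of 0.1 or more in every library the median was 1.08 to 1.11.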

How the data were processed

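Total cells of 2 muscles of rats aged 12 months were run on the 10x Genomics 3' kit, version 3.1, in 1 library per group, per the labels' protocols. Per the file headers, Cell Ranger 4.0.0 made the deposited UMI counts per gene and barcode, over 25399 genes, which the authors did not normalize. Per the submitters' processing notes the genome build is rn6. For the annotation and the cell calling, nothing is given in the sources used here. Members and gene lists were chosen with earlier results of these data known, and gene lists include ones that earlier work on these data prompted.

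Counts were summed over the chosen barcodes of a library and scaled to CPM with Python 3.11.15, scipy 1.17.1 and pandas 2.3.3. Log2 ratios had a prior of 10 CPM on both sides. The code for folds and their intervals was run on Poisson counts simulated with known folds. Such counts hold counting error only, so how well the intervals cover folds in these data was not tested. A fold against 0 used 3 counts for the library at 0. Genes were named by rule: in each comparison the 10 highest and 10 lowest log2 ratios among genes with 100 CPM or more in the higher library, a fold interval without 1, no rule, mitochondrial, ribosomal or other cell type's marker gene, a symbol that is no clone name, and a level in members of the higher library at or above that of non-endothelial barcodes. The 15 genes with the highest lowest ratio to those barcodes, and members of described lists, were added. Some genes that these rules name are not reported here.

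Scrublet in scanpy 1.11.5 marked 29 of the 14233 kept barcodes by its automatic threshold, too few for a working call, so doublets stayed in, and removal of the highest scores at 0.8% per 1000 barcodes was an alternative. Thinning drew 1000 UMIs per barcode without replacement. RefSeq promoters are of build GRCr8, so no coordinate of the rn6 files was used with them. Alternatives were stricter barcode filters, a 3% threshold, other priors, filters and scalings, and a count of each member as equal.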

Additional observations from a re-analysis of the deposited data

Results flagged for a closer look

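Among genes past 2-fold between the labels in both muscles, 2 lay on opposite sides. The difference was not tested. Purb, a single-stranded DNA and RNA binding protein, was at 163 CPM in WT-labelled TA, 55.8 in DMD-labelled TA, 69.3 in WT-labelled EOM and 170 in DMD-labelled EOM, so its log2 ratio of DMD over WT was -1.39 in TA and 1.18 in EOM, a difference of 2.57. Non-endothelial barcodes held 107, 71.7, 54.2 and 146 CPM, also lower in the DMD library in TA and higher in the DMD library in EOM. Without cells that carried other cell types' markers the log2 ratios were -1.53 and 1.11.

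Hba-a1, an alpha globin of red blood cells, was at 731, 1490, 265 and 49 CPM, with log2 ratios of 1.02 in TA and -2.22 in EOM, a difference of -3.24. Without cells that carried other cell types' markers, of which Hba-a1 is one, the TA ratio was -2.14 and the EOM ratio -2.02. Non-endothelial barcodes held 114710, 3432, 80713 and 4789 CPM of it.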

How the results depend on the processing

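No paired analysis was possible because every group has 1 library, and leaving out a replicate was not possible for the same reason. The EOM sums rest on 198 and 143 cells, which limits low genes there. The capillary share of kept barcodes, in the order WT-labelled TA, DMD-labelled TA, WT-labelled EOM and DMD-labelled EOM, was 53.1%, 26%, 26.1% and 13% after thinning, 22.7%, 5.87%, 9.19% and 3.91% at a threshold of 3%, and 68.7%, 36.6%, 38.3% and 23% without the limits. With 1000 UMIs and at most 10% mitochondrial UMIs it was 31% in WT-labelled TA, 14.5% in DMD-labelled TA and 4.32% in DMD-labelled EOM. It was 20% in DMD-labelled TA without the highest scrublet scores, and 31.2% and 12.6% in the TA libraries without cells with other cell types' markers.

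Counts of genes past 2-fold, higher and lower, changed as follows. At 20 CPM they were 372 and 198 for TA between labels, 199 and 339 for EOM between labels, 88 and 104 for EOM over TA within WT, and 183 and 414 within DMD. With no filter they were 509 and 209, 307 and 465, 107 and 144, and 203 and 614. A threshold of 3% gave 78 and 61 in TA, 86 and 89 in EOM and 70 lower for EOM over TA within DMD. Without cells with other markers, TA had 69 and 63 and EOM over TA within DMD had 49 lower. A prior of 50 CPM gave 50 lower in TA, 31 and 18 in EOM, 12 lower within WT and 29 higher within DMD; a prior of 1 CPM, and equal weight of cells, gave 29 higher within WT. Without the limits EOM had 26 lower, and EOM over TA within DMD 37 higher. The 17 genes higher in both muscles became 47 at 20 CPM and 71 with no filter; the 12 lower in both became 28, 32, 19 with equal weight and 7 at a prior of 50 CPM. The 2 genes on opposite sides became 1 with stricter barcodes, at 3%, without the highest scrublet scores or without cells with other markers, 4 at 20 CPM, 6 with no filter and 0 at a prior of 50 CPM.

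Restricting lists to genes at or above the non-endothelial level turned the TA medians of leukocyte adhesion (-0.54), glucocorticoid targets (-0.26) and S100 and annexin genes (-0.55), and that of S100 and annexin genes for EOM over TA within DMD (0.14). For EOM over TA within DMD, Ubd had -0.12 without the limits, Rnf215 0.14 after thinning, and Cd74 0.42 at 3% and 0.47 without cells with other markers, which also gave Hba-a1 0.10 and Lum 0.06, the reverse of their signs otherwise. Hba-a1 between the labels in TA was -0.33 at 3% and -2.14 without such cells. Over the 4 comparisons, genes of the naming rule or the text gave 245 log2 ratios of 1 or more in size. Between 241 and 245 of these kept their direction under the 11 alternatives that change a ratio, and between 149, with a prior of 50 CPM, and 245, with one of 1 CPM, also kept that size. Causes were not tested.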

Other observations

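Glucocorticoid target genes had a median log2 ratio of 1.48 over 9 genes in DMD-labelled TA over WT-labelled TA, 0.80 without cells that carried other cell types' markers, and -0.02 over 8 genes in EOM. Over the 4 genes at or above the non-endothelial level of the higher library the TA median was -0.26, and mural, fibroblast and macrophage markers were highest in DMD-labelled TA; their part was not tested. Fkbp5, a chaperone that glucocorticoids induce, was at 4.98 CPM in WT-labelled TA, 47.5 in DMD-labelled TA, 0 in WT-labelled EOM and 15.1 in DMD-labelled EOM. Tsc22d3 was at 84.7, 180, 89.1 and 56.6 CPM. Zbtb16, a transcription factor of the same list, was at 12.1, 51.6, 2.48 and 30.2 CPM, higher in the library labelled DMD of both muscles.

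Circadian clock genes had medians of 0.57 over 10 genes in TA, 0.71 in its cells without other cell types' markers, and 0.26 in EOM. Dbp, an output gene of the clock, was at 16.4 and 98.2 CPM in TA and 24.8 and 33.9 CPM in EOM. The time of day of dissection is not given in the labels used here.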
